A study of Mus musculus with 26 samples.

Results

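The respiratory chain complex genes described here are the nuclear genes of the mitochondrial electron transport chain and ATP synthase, followed through 8 populations of early blood cells. They were taken by name: a gene belonged if its symbol starts with Ndufa, Ndufb, Ndufc, Ndufs, Ndufv, Sdh, Uqcr, Cox4, Cox5, Cox6, Cox7, Cox8 or Atp5 and if at least 1 probe set of the array names that gene alone. This gave 94 genes of 18194 measured (0.517%). By their prefixes, 36 belong to complex I, 4 to complex II, 8 to complex III, 17 to complex IV and 17 to ATP synthase, while 12 (symbols in Ndufaf and Sdhaf) encode assembly factors. Each gene was read from its brightest probe set, and values are log2 levels. Probe sets differ in how well they bind, so a level is compared only with the level of the same gene in another population.

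The study set progenitors of the blood lineages side by side on 26 Affymetrix arrays, 1 array per sample, from male C57/Bl6 mice aged 2 months. Bone marrow was the source of MPPFL- (n = 5) and MPPFL+ (n = 3), for which a second label has the spelling MMPFL, and of CMP, GMP and CLP (n = 3 each), where a second label of CLP reads ALP. The labels give only these abbreviations. In their usual sense MPP are multipotent progenitors, CMP common myeloid, GMP granulocyte-macrophage and CLP common lymphoid progenitors, and FL is not spelled out. The thymocyte stages DN1, DN2 and DN3, successive steps of early T cell formation, had n = 3 each. No treatment, transgene or deletion is named for any population. The sources used here give neither the sort gates nor the number of animals behind an array, so p-values measure the spread between these samples, which may be technical.

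Electrons from NADH enter the chain at complex I and electrons from succinate at complex II, pass through ubiquinone to complex III and through cytochrome c to complex IV, where oxygen is reduced. Complexes I, III and IV pump protons across the inner mitochondrial membrane, and ATP synthase uses their return to make ATP. Blood stem cells are known for a largely glycolytic metabolism, and their differentiation for a greater use of this chain. Complex IV has subunits with alternative isoforms for muscle, lung or testis, and assembly factors are proteins that help to build a complex without staying in it.

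Some arrays stand apart. Controls of the labelling reaction (poly-A spike-ins) put CMP replicate 1 and DN3 replicate 3 away from the other arrays of their populations, and spike-in cluster and population move together for GMP, for DN1 with DN2, and for MPPFL-, MPPFL+ and CLP. Against the male label, Xist (transcribed from an inactive X) reached 12.21 to 13.59 on DN1 replicates 1 and 3 and DN2 replicate 2, and 6.30 on DN2 replicate 3. Eif2s3y, a gene of the Y chromosome, gave 2.62 on DN1 replicate 3 and the floor value on DN2 replicate 2. The floor is the single lowest value of the table, 2.17, which every array shares and which 30.2% to 37.1% of probe sets take. The difference between 3 prime and 5 prime control probes, a sign of RNA integrity, ran from 1.66 to 1.76 in GMP, from 2.78 to 3.16 in CLP and from 1.64 to 4.18 in DN1. By population means, some markers set 1 population apart. Ptcra peaked in DN3 (12.81, next DN2 at 2.94), Elane in GMP (13.75, next CMP at 10.58) and Klf1 in CMP (9.11, next MPPFL- at 4.43). Others were shared. Il7r averaged 13.23 in CLP and 12.89 in DN2, and Il2ra 13.14 in DN2 and 13.16 in DN3. Flt3 was higher in MPPFL+ (13.31) than in MPPFL- (10.99), but also high in CLP (13.58). Dntt averaged 14.06 in CLP, 14.01 in DN1 and 13.08 in MPPFL+, and Mpo 16.11 in GMP and 14.15 in CLP. None of these markers peaked in DN1 or DN2.

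Most chain genes were bright in every population and spread less between populations than other genes. Among the 94, 87 had a mean over all arrays more than 1 log2 unit above the floor, and the other 7 (Cox4i2, Cox7a1, Cox7b2, Cox8b, Cox8c, Ndufa4l2 and Ndufb4) were dim. For Ndufb4 this holds for the 1 probe set that names it alone. A pair of probe sets shared with its copies Ndufb4b and Ndufb4c was bright, with population means of 11.66 to 12.48 and 8.94 to 10.60. Of the 94, 71 differed among the 8 populations by limma's moderated F test (Benjamini-Hochberg adjusted p under 0.05 over all genes), where 58.1% of all genes tested did so. Of the 87 that were not dim, 70 passed (80.5%), against 90.7% of the 10367 genes not dim. The highest and the lowest population mean of a gene were a median of 0.962 log2 units apart for these 87 and 1.77 for all genes not dim. The distance was over 2 units in 6 of the 87 (6.9%), against 42.4% of genes not dim, and under 1 unit in 52 (59.8%), against 17.6%.

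Genes of like brightness were then set beside the members. Between the lower and upper quartile of the members' mean levels (10.66 to 13.3) lay 2319 genes, 43 of them members. Their median distance between extreme populations was 1.37 for all of these genes and 0.968 for the members, and 91.9% and 81.4% passed the F test. The steadiest bright members were Ndufc2 of complex I (0.48 between extremes), Cox6c of complex IV (0.51), and 3 genes of ATP synthase, Atp5j2 (0.52), Atp5g3 (0.55) and Atp5j (0.55), with Ndufa2 of complex I at 0.56. Atp5j2 and Ndufa2 did not pass the F test (limma adjusted p = 0.222 and 0.0975). The plot of distances between extremes shows both sets side by side.

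**Figure D1:**
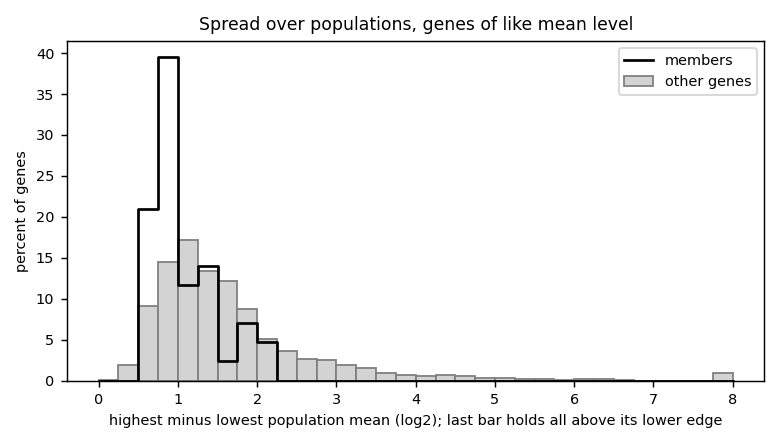
Distance between the highest and lowest population mean (log2 units, x axis) for genes with mean levels between 10.66 and 13.3, as the percent of each set (y axis); black outline, the 43 members, grey bars, the other genes of this brightness. Most members lie below 1 unit, while the grey bars reach farther to the right.

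The spread differed between the parts of the chain. ATP synthase genes had the smallest median distance, 0.781, followed by complex I at 0.903, complex IV at 0.925, complex III at 0.98 and complex II at 1.13, each over its members that were not dim. The 12 assembly factors had the largest, 1.38, and 11 of them passed the F test. They were also dimmer than most ATP synthase genes, with mean levels of 7.40 to 11.13 against 9.55 to 14.81. These medians were not matched for brightness. The members with the widest distance were Cox6a2 (7.34), Ndufaf2 (2.64), Cox6b2 (2.41), Ndufaf5 (2.12), Uqcrq (2.10), Ndufa4 (2.05), Ndufs8 (1.95), Sdhd (1.87), Cox8a (1.85) and Sdhaf4 (1.82). The heat map of members by array shows this pattern, along with the strong colours of CMP replicate 1. No population was at one end for most members. DN2 had the highest mean for 19 of the 87 (21.8%, against 11.6% of genes not dim), GMP for 16 (18.4% against 20.7%), CMP for 15 (17.2% against 4.04%), CLP for 15 (17.2% against 13.2%) and DN3 for 4 (4.6% against 18.7%). The lowest mean was in DN1 for 15 (17.2% against 12.5%), in MPPFL- for 14 (16.1% against 11.0%) and in DN3 for 14 (16.1% against 20.8%). It was in MPPFL+ for 11 (12.6% against 4.57%), in CLP for 4 (4.6% against 4.01%) and in DN2 for 4 (4.6% against 13.4%).

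**Figure D2:**
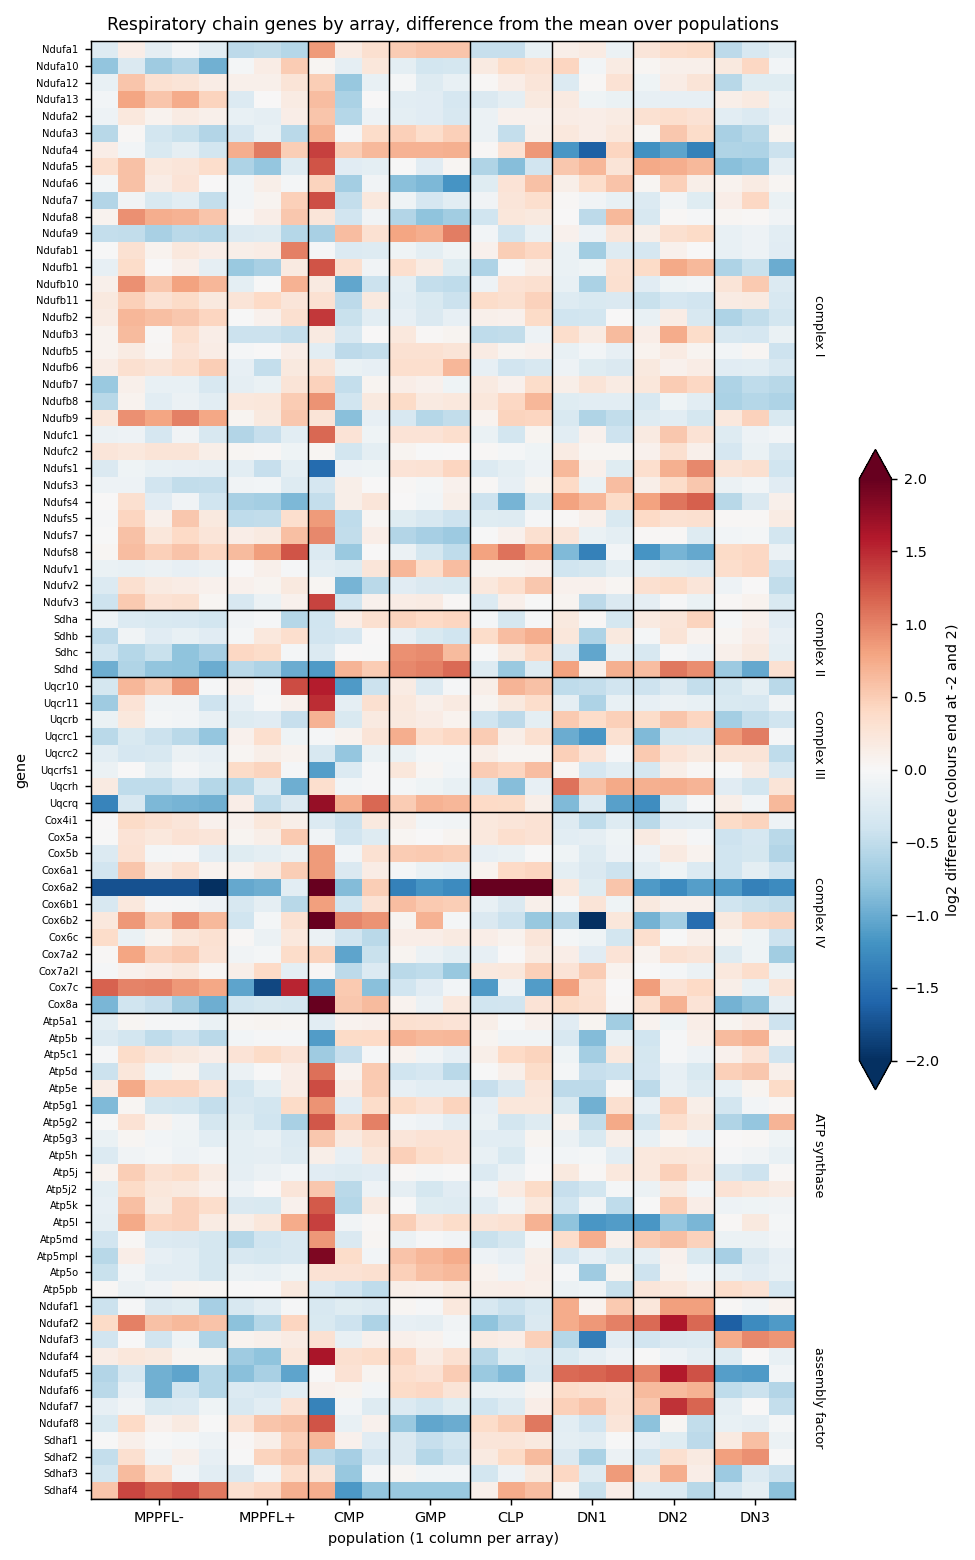
Log2 level of each of the 87 members not dim (rows, grouped by complex) on each of the 26 arrays (columns, grouped by population), as the difference from the gene's mean over the 8 populations; red is higher, blue is lower, and colours end at -2 and 2. Most rows are pale, Cox6a2 is red on the 3 CLP arrays, and CMP replicate 1 differs from its 2 partners in many rows.

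Cox6a2, the heart and skeletal muscle isoform of a small complex IV subunit, had the widest distance between population means. Other members also had 1 population clear of all other arrays, such as Ndufa9, Sdhc and Atp5o in GMP and Ndufaf3 in DN3. In CLP it read 10.90, 10.97 and 11.31. In MPPFL- it was at 3.92 on 4 arrays and 2.88 on the fifth, and in MPPFL+ at 4.63, 4.69 and 5.45. In CMP the arrays spread from 4.80 through 6.15 to 8.43, the last on replicate 1. Every CLP array was thus above every array of the other populations. GMP gave 4.31, 4.48 and 4.40, DN2 gave 4.40 to 4.56 and DN3 gave 4.31 to 4.52. DN1, the next stage in the thymus, gave 5.87, 5.41 and 6.22. Some arrays outside CLP share 1 value of this probe set (3.92 on 4 MPPFL- arrays; 4.40 on GMP replicate 3, DN2 replicate 2 and DN3 replicate 3), so the folds that follow are those of its readings and not exact ratios of RNA. The mean in CLP, 11.06 ± 0.22 (SD, n = 3), was 70.3-fold above MPPFL+ (log2 difference 6.14, SE 0.55, limma adjusted p = 2.01e-07) and 102-fold above GMP (6.67, SE 0.55, adjusted p = 1.3e-08). DN1 was 37.5-fold below CLP (log2 difference -5.23, SE 0.55, adjusted p = 8.42e-07).

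The second probe set of Cox6a2 was also highest in CLP, with larger folds. It gave 10.16 to 10.89 in CLP and lay at the floor on all arrays of MPPFL-, GMP, DN2 and DN3, so that by this probe set CLP was at least 307-fold higher than each of these, a bound set by the floor. The probe sets thus share the direction and differ in the size of the fold. In CMP 2 arrays were at the floor and replicate 1 was at 5.71. Cox6a1, the isoform found in most tissues, was present throughout, from 13.90 ± 0.12 in DN3 to 14.53 ± 0.19 in CLP (SD, n = 3), and did not pass the F test (limma adjusted p = 0.063). The plot of both isoforms shows the CLP arrays alone at the top for Cox6a2 and all populations near each other for Cox6a1.

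**Figure D3:**
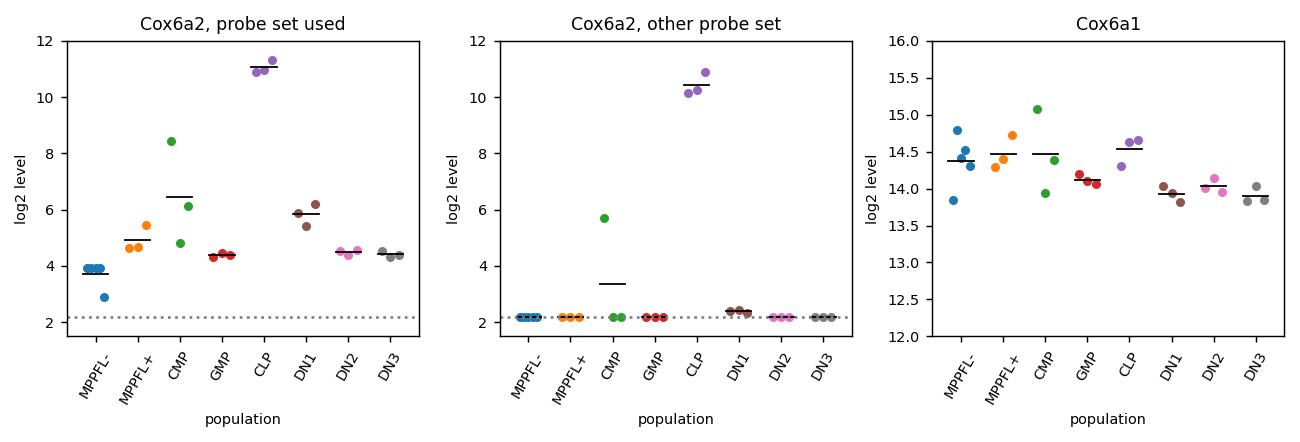
Log2 level by population for the probe set used for Cox6a2, its other probe set, and Cox6a1 (separate y axes); points are arrays, short lines population means, and the dotted line is the floor. The 3 CLP arrays sit at 10.90 to 11.31 for Cox6a2, while Cox6a1 stays between 13.82 and 15.08 on all arrays.

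Genes of other cells that use this isoform were looked at beside it, in lists drawn up after the values were seen. Of 10 striated muscle genes, 8 were within 1 log2 unit of the floor on all CLP arrays, and the mean level of the list was 2.36 to 2.59 there. The exceptions were Myog, a muscle transcription factor, at 2.21 to 4.64 in CLP and at the floor in the other populations, and Tnni2, a troponin of fast muscle, at 3.79 to 4.02 in CLP and 3.19 to 4.47 in DN1. Myog passed as higher in CLP than in MPPFL+ (1.23, limma adjusted p = 0.0242). Of 8 genes typical of plasmacytoid dendritic cells, none stayed that near the floor on all CLP arrays, and the mean of the list was 7.30 to 8.04 in CLP, 5.32 to 5.42 in MPPFL+ and 7.72 to 8.19 in DN3. Siglech, a surface receptor of plasmacytoid dendritic cells, was at 4.30 to 5.81 in CLP and at the floor on all arrays of the other populations. Irf8, Tcf4 and Pacsin1 also had their highest mean in CLP (14.56, 12.65 and 3.41). Spib, Ly6d, Mzb1 and Bst2 had theirs in DN3 (9.96, 12.23, 9.18 and 9.96), and Spib was at 2.45 to 3.43 in CLP. The part of these lists in the Cox6a2 signal was not tested. In such bulk samples, fewer cells of a type and less RNA per cell cannot be told apart.

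Of the other complex IV genes, 10 of 17 passed the F test, Cox6a2 among them. Cox6b2, the testis isoform of Cox6b1, was low and uneven. Its highest mean was in CMP, at 8.18, 6.94 and 6.86, and its lowest in DN2, at 5.02, 5.29 and 4.44, and the DN1 arrays ranged from 3.30 to 6.18. Cox6b1 itself ran from 13.80 ± 0.05 in DN3 up to 14.79 ± 0.07 in GMP (SD, n = 3). Cox7a2l, a factor that joins complexes III and IV, was at 14.22 ± 0.16 in CLP and 13.32 ± 0.13 in GMP (SD, n = 3). Cox7c gave 8.65, 7.88 and 11.23 on the 3 MPPFL+ arrays and did not pass (limma adjusted p = 0.0775). Cox4i1, the common isoform of its subunit, ran from 13.86 in DN1 to 14.44 in CLP (population means). The lung isoform Cox4i2, the muscle isoforms Cox7a1 and Cox8b, the testis isoform Cox8c and Cox7b2 stayed within 1 log2 unit of the floor on all 26 arrays.

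Complex I holds the largest number of members, and 27 of its 36 passed the F test. Ndufs8, an iron-sulfur subunit of the arm that takes electrons from NADH, was among the widest. It read 13.60, 13.80 and 14.21 in MPPFL+ and 13.78, 14.04 and 13.76 in CLP, against 12.08, 11.62 and 12.91 in DN1 and 11.78, 12.04 and 11.94 in DN2. In DN3 it was back at 13.35, 13.38 and 12.84, so the DN2 arrays were below every array of MPPFL+, CLP and DN3. Ndufs4, an accessory subunit whose loss causes a severe encephalopathy in mice, ran the other way. It was at 10.73, 10.21 and 10.78 in CLP, 11.94, 11.80 and 11.52 in DN1, 11.95, 12.21 and 12.33 in DN2 and 10.58, 10.85 and 11.25 in DN3. Its DN1 and DN2 arrays were thus above all arrays of CLP and DN3.

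Ndufa9, an accessory subunit near the quinone site, was highest in GMP, with 13.28, 13.22 and 13.52, and lowest in MPPFL-, with 11.86 to 12.02. Ndufa4, named for complex I and now counted as a subunit of complex IV, was at 11.87 to 11.88 in GMP and at 9.82 to 10.11 in DN2, and the DN1 arrays lay at 10.01, 9.54 and 11.61. Replicate 3 of DN1 was thus apart from its partners for this gene. The GMP arrays and the DN2 arrays of Ndufa4 did not overlap. Ndufa4l2, a paralog of Ndufa4 induced by low oxygen, was within 1 log2 unit of the floor on all arrays.

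Complex II, which is also an enzyme of the tricarboxylic acid cycle, had its highest population means in GMP for most of its subunits. All 4 subunits passed the F test, and 3 of them, the flavoprotein Sdha and the membrane anchors Sdhc and Sdhd, had their highest population mean in GMP. Sdhd read 11.91, 11.96 and 12.08 in GMP, 10.70, 10.20 and 10.68 in CLP and 9.96 to 10.35 in MPPFL-. Sdhc read 11.60, 11.62 and 11.31 in GMP, 10.66, 10.87 and 11.09 in CLP and 9.88 to 10.29 in MPPFL-. For both, the GMP arrays were above all arrays of the other 2 populations. Only for Sdhc were they above all other arrays. In DN2 Sdhd read 11.56, 12.01 and 11.87, which overlaps GMP. Sdha overlapped as well, at 13.017, 13.079 and 13.283 in DN2 and 13.235 to 13.285 in GMP. A second probe set of Sdhd was higher in GMP than in CMP (log2 difference 0.67, limma adjusted p = 0.000345). It was also higher in DN2 than in DN1 (0.47, adjusted p = 0.0182). On this probe set the mean of DN2 lay above that of GMP. The population where Sdhd was highest thus depends on the probe set. The iron-sulfur subunit Sdhb went apart from the other 3, running from 12.10 ± 0.12 in GMP up to 12.95 ± 0.19 in CLP (SD, n = 3).

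As a description, the median over the 4 complex II genes, each taken as its difference from its mean over populations, was 0.53 to 0.69 on the GMP arrays and -0.56 to -0.38 on the MPPFL- arrays. The same median over all genes not dim was near 0 in both, at -0.04 to 0.00 in GMP and -0.02 to 0.08 in MPPFL-. Sdhd also showed a wide spread in CMP, where replicate 1 was at 9.81 and the others at 11.63 and 11.45.

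In complex III, 6 of 8 members passed the F test. Uqcrq, a small subunit that binds ubiquinone, was highest in CMP, at 12.83, 11.82 and 12.24, and lowest in MPPFL-, at 9.76 to 10.76, with no overlap. Its other 3 probe sets lay near the floor on most arrays and could not be compared with it. Uqcrh, the hinge protein that helps the transfer to cytochrome c, was at 13.50, 13.02 and 13.17 in DN1 and 13.10 to 13.14 in DN2, above the 12.08, 11.56 and 12.26 of CLP and the 12.20, 12.05 and 12.67 of DN3. The core protein Uqcrc1 was at 12.30, 12.46 and 11.43 in DN3 and at 10.57, 11.10 and 11.11 in DN2. DN3 replicate 3, 1 of the arrays set apart by its spike-ins, was the lowest of its group here.

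Of the 17 ATP synthase genes 13 passed the F test. Atp5l, subunit g of the membrane part, was lower in DN1 (8.72, 8.36 and 8.41) and DN2 (8.36, 8.76 and 8.61) than on any array of the other 6 populations, where it lay between 9.35 and 10.90. Atp5h, subunit d of the peripheral stalk, moved little in size but with small errors, from 14.61 ± 0.04 in MPPFL+ to 15.19 ± 0.09 in GMP (SD, n = 3). Atp5g2, one of the genes for the c ring, was at 11.97, 11.19 and 11.72 in CMP and at 10.06 to 10.47 in MPPFL+.

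Among assembly factors, Ndufaf2 and Ndufaf5 had the clearest course. Ndufaf2 is a late chaperone of complex I assembly. It was at 10.03 to 10.65 in MPPFL-, 8.84, 9.05 and 9.35 in CLP, 10.38, 10.51 and 10.64 in DN1, 10.78, 11.25 and 10.79 in DN2 and 8.01, 8.38 and 8.51 in DN3. All arrays of DN1 and DN2 were above all of CLP and of DN3. Ndufaf5, which modifies an arginine of the complex I subunit Ndufs7, was at 7.01, 6.88 and 7.43 in CLP, 8.89, 8.92 and 8.98 in DN1, 8.75, 9.35 and 9.03 in DN2 and 6.66, 6.63 and 7.69 in DN3. Ndufaf3, an early assembly factor, was lowest in DN1 (6.85, 6.03 and 7.19) and highest in DN3 (8.15, 8.38 and 8.31). Ndufaf8, a partner of Ndufaf5, was lowest in GMP (10.08 to 10.39) on the probe set used. On its other probe set the mean of GMP lay above that of MPPFL-. Sdhaf4, a chaperone of Sdha, took the same value, 8.29, on all 3 GMP arrays and was at 9.60 to 10.37 in MPPFL-. Folds of Sdhaf4 against GMP are thus those of its readings and not exact ratios of RNA. The courses of Ndufaf2 and Ndufaf5 are drawn in the plot of 9 members by population.

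**Figure D4:**
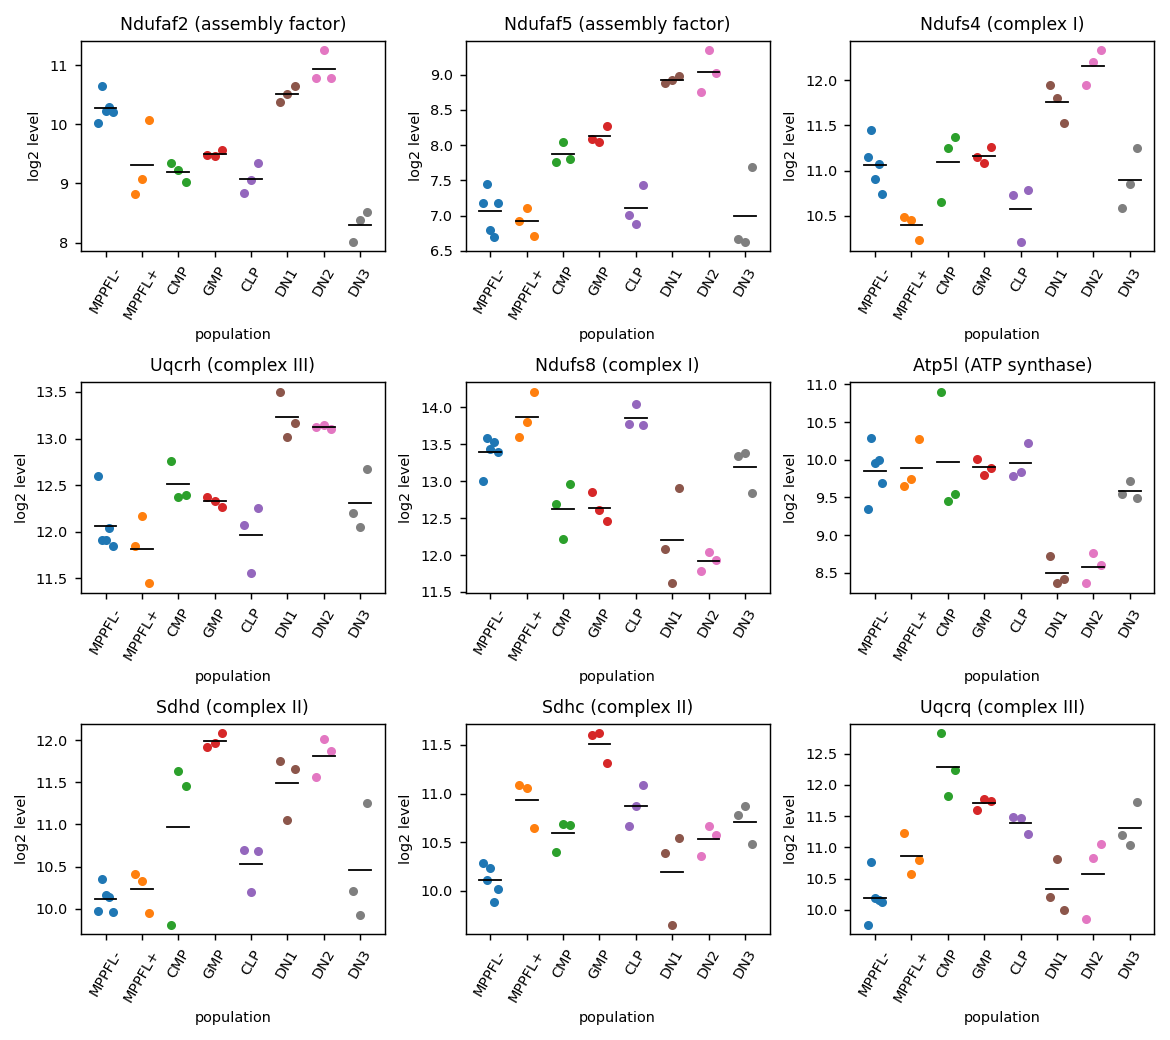
Log2 level (y axes, separate scales) of 9 members by population (x axis); points are arrays and short lines population means. Ndufaf2, Ndufaf5, Ndufs4 and Uqcrh are higher in DN1 and DN2 than in CLP and DN3, Ndufs8 and Atp5l are lower there. Sdhd and Sdhc have their highest mean in GMP, and the DN2 arrays of Sdhd overlap it.

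The promoters of these genes were searched because factors of mitochondrial biogenesis, NRF1 and the ETS family factor GABP, are known to bind at many of them. RefSeq promoters (build GRCm38.p6) were found for 78 of the 94 members, and the 250 bases before the gene start were read on both strands. The NRF1 palindrome, whose letters are the capitals in the windows printed with it, stood in 4 of the 78 (5.13%) and in 0.781% of the 27025 promoters searched. With 1 base of it left open, a search that includes the palindrome, it stood in 11 members (14.1%) against 3.86%. The ETS motif CCGGAAG stood in 15 (19.2%) against 7.05%, and the E-box CACGTG in 6 (7.69%) against 6.05%. The median GC content of the windows was 57.6% for members and 52.0% for all. The 4 windows with the full palindrome, 60 bases each, are given 5′ to 3′ on the gene's strand with the palindrome in capitals, at chr4:24897945-24898004 (+), chr5:108434415-108434474 (-), chr5:115349086-115349145 (-) and chr15:102671055-102671114 (-).
Ndufaf4: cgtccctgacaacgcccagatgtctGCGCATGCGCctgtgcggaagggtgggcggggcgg
Atp5k: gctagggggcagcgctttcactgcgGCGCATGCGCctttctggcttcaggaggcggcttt
Cox6a1: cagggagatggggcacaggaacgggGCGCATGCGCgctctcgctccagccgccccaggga
Atp5g2: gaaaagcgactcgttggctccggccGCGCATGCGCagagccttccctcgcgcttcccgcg
The motif begins 113 bases before the start in Ndufaf4, 50 in Atp5k, 162 in Cox6a1 and 42 in Atp5g2. These are matches of letters, and no binding was measured. Of these 4 genes, Cox6a1 and Atp5k did not pass the F test (limma adjusted p = 0.063 and 0.403). Ndufaf4 and Atp5g2 passed as higher in CMP than in MPPFL+, but not with the mean of their probe sets (0.26 and 0.24), and a second probe set of each read lower in CMP without passing (-0.67 and -0.63).

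Single steps between populations were then tested in 1 limma fit over all arrays, two-sided, with adjustment over all 18194 genes. The plot of shares that passed sets the members beside all genes in each comparison. In CLP with MPPFL+ and in DN2 with DN1 few members passed, and in DN3 with DN2 more members were lower than higher.

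**Figure D5:**
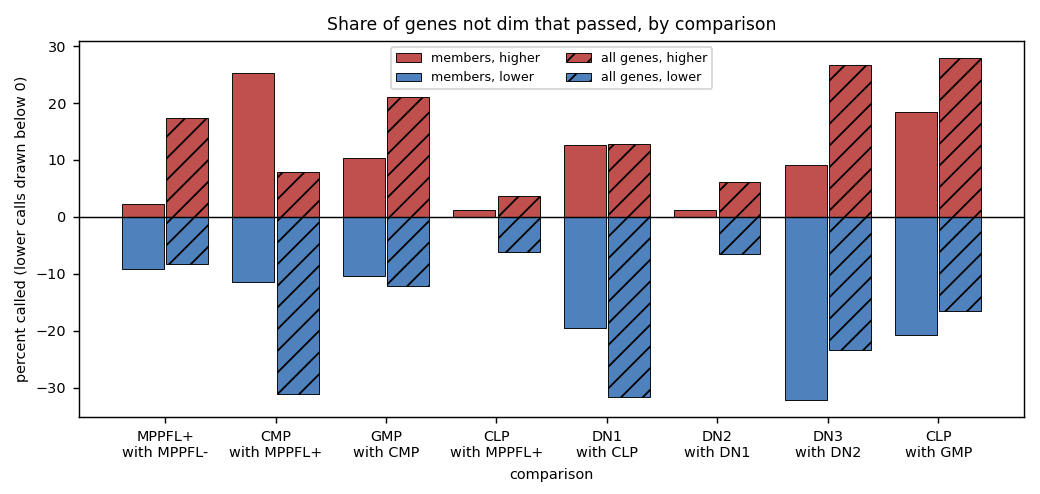
Percent of the members not dim (plain bars) and of all genes not dim (hatched bars) that passed in each comparison, with higher calls drawn above 0 and lower calls below 0. In CMP with MPPFL+ the members' bar is longer above 0 and that of all genes longer below 0; in DN3 with DN2 the members' bar is longer below 0.

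The comparison of MPPFL+ with MPPFL- sets the 2 multipotent populations side by side. In all, 2 members were higher and 8 lower (15.9% of all genes passed, 10.6% higher and 5.25% lower, and 25.7% of genes not dim). Of the 8, 6 belong to complex I, among them Ndufa5 (-0.90, SE 0.25, limma adjusted p = 0.0172), Ndufb3 (-0.69, SE 0.15, adjusted p = 0.00363), Ndufs4 (-0.67, SE 0.19, adjusted p = 0.0183) and Ndufa1 (-0.42). The others were Atp5j (-0.40, SE 0.10), a part of the peripheral stalk, and Ndufaf2 (-0.96), whose arrays overlap. Ndufa10, an accessory subunit of complex I, was higher at 12.35, 12.54 and 12.90 against 11.44 to 12.11 (0.86, SE 0.15, adjusted p = 0.000382), as was Sdhc at 11.09, 11.06 and 10.64 against 9.88 to 10.29 (0.82, SE 0.17, adjusted p = 0.00207). The other probe set of Ndufa10 did not differ (0.02, SE 0.295). With the mean of its probe sets Ndufa10 did not pass (0.44, limma adjusted p = 0.0709). The count depends on single arrays: 5 passed without MPPFL+ replicate 2, 18 without CMP replicate 1, and 6 with a replicate block, against 10. Cell cycle genes were higher in MPPFL+ for 10 of 19 measured and lower for none.

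The comparison of CMP with MPPFL+ is the step into the myeloid branch. Of the members 22 were higher and 10 lower, where 24.1% of all genes and 39.0% of genes not dim passed and far more were lower (18.7%) than higher (5.39%). ATP synthase had 7 higher and 2 lower of 17, complex I had 6 and 4 of 36, complex IV 4 and 1 of 17, complex III 3 and 2 of 8, the assembly factors 2 and 1 of 12, and complex II none of 4. The largest rises were those of Cox8a (2.89-fold, log2 difference 1.53, SE 0.34, limma adjusted p = 0.00208), Uqcrq (2.7-fold), Cox6b2 (2.65-fold), Atp5g2 (2.54-fold, adjusted p = 0.00474), Ndufaf4 (2.3-fold) and Atp5mpl (2.08-fold). Cox8a is a small complex IV subunit and read 10.12, 8.35 and 8.44 in CMP against 7.42 to 7.45 in MPPFL+. Ndufs8 fell most (-1.25, SE 0.26, adjusted p = 0.00146), ahead of Sdhaf2 (-0.84), which inserts the flavin of Sdha, Atp5c1 (-0.72), the rotor subunit gamma, Ndufab1 (-0.61), the mitochondrial acyl carrier protein, Ndufv2 (-0.59) and Uqcrc2 (-0.48).

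The balance between higher and lower members rested on CMP replicate 1. Without it, 12 members were higher and 18 lower. Without both CMP replicate 1 and DN3 replicate 3 the counts were 12 and 20, and with spike-in cluster as a random block 4 were higher and none lower. All genes not dim had a median difference of -0.336 here and the members one of 0.00. After quantile normalization these were -0.121 and 0.197, with 27 members higher and 7 lower. Leaving out MPPFL+ replicate 1 or 3 gave 20 and 21 members in place of 32, and a fit of these 2 populations alone gave 3. The call of Cox6b2 was lost under 27 of 36 alternatives and that of Uqcrc2 under 25. Red cell genes, which mark a lineage that CMP can form, were higher in CMP for 7 of 8 measured, with list means of 6.60 to 7.46 in CMP and 2.58 to 3.75 in MPPFL+, and their part in these differences was not tested.

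From CMP to GMP, the step to the granulocyte and macrophage lineage, the members divided evenly, with 9 higher and 9 lower (21.4% of all genes passed, 13.8% higher and 7.63% lower, and 33.2% of genes not dim). Complex I accounted for 5 of the 9 higher and 2 of the 9 lower. Higher in GMP were Sdhc (0.92, SE 0.19, limma adjusted p = 0.00149), the core iron-sulfur protein Ndufs1 (0.91, SE 0.29, adjusted p = 0.0313), Ndufa9 (0.75, SE 0.20), and Ndufv1 (0.62, SE 0.15, adjusted p = 0.00542), the flavoprotein that binds NADH. Ndufb5 (0.70, SE 0.09, adjusted p = 1.84e-05) and the stalk subunit Atp5pb (0.52) were also higher. Lower in GMP were Cox6a2 (4.18-fold, adjusted p = 0.0103, not passed with the 2 populations alone or with the spike-in block, and a log2 difference of -1.08 without CMP replicate 1), Ndufaf8 (2.51-fold), Cox8a (2.15-fold), Atp5g2 (2.04-fold), Atp5d (1.98-fold), part of the rotor's central stalk, and Ndufa6 (1.82-fold). For Ndufb5 the GMP arrays read 13.44, 13.45 and 13.41 and the CMP arrays 12.93, 12.62 and 12.66, with no overlap. Ndufs1, Cox8a, Atp5g2 and Ndufa6 did not pass without CMP replicate 1. On that array Ndufs1 read 9.83, against 11.26 and 11.28 on the other CMP arrays. Ndufs1 lost its call under 9 of 36 alternatives, with differences down to 0.43. Without CMP replicate 1, 13 were higher and 3 lower, without CMP replicate 2 it was 9 and 20, without GMP replicate 3 it was 6 and 5, and with spike-in cluster as a random block 1 and 1. After quantile normalization 4 were higher and 13 lower, so the split depends on the scaling. Red cell genes were lower in GMP for 5 of 8.

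CLP with MPPFL+ is the step into the lymphoid branch, and it showed 1 member only. Cox6a2 was higher and none was lower, where 6.54% of all genes passed (2.53% higher and 4.01% lower), and 9.89% of genes not dim. The other members had log2 differences between -0.45 and 0.52.

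DN1 with CLP sets the first thymic stage beside the lymphoid progenitor of the marrow. The assembly factors Ndufaf5 and Ndufaf2 and the subunits Uqcrh and Ndufs4 were higher in DN1, and Ndufs8, Atp5l and Cox6a2 were lower. In all, 11 members were higher and 17 lower (26.9% of all genes passed, 8.03% higher and 18.8% lower, and 44.5% of genes not dim). Ndufaf5 rose 3.54-fold (log2 difference 1.82, SE 0.24, limma adjusted p = 1.1e-05), Ndufaf2 2.69-fold (1.43, SE 0.24, adjusted p = 0.000133), Uqcrh 2.4-fold (1.26, SE 0.22, adjusted p = 0.000198) and Ndufs4 2.27-fold (1.18, SE 0.21, adjusted p = 0.000261). Ndufa5 of complex I (2.14-fold) and Uqcrb of complex III (1.78-fold) followed. Ndufs8 was 3.16-fold lower (-1.66, SE 0.26, adjusted p = 7.33e-05), Atp5l 2.73-fold (adjusted p = 0.000798), Uqcrq 2.07-fold (adjusted p = 0.0164), Ndufaf3 1.98-fold (adjusted p = 0.00114) and Ndufb9 1.71-fold (adjusted p = 0.0193). Uqcrq lost its call under 8 of 36 alternatives and Ndufb9 under 6, in both cases with the mean of probe sets (-0.09 and -0.21) and without the 4 arrays that read Xist.

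By complex, DN1 had 4 assembly factors higher and 2 lower of 12, and 4 complex I genes higher and 6 lower of 36. Complex II had 0 higher and 2 lower, complex III 2 and 3, complex IV 0 and 3, and ATP synthase 1 and 1. Of 15 immediate early and stress genes, 9 were higher in DN1 and 0 lower, with list means of 10.10 to 12.37 on the DN1 arrays, and of 19 cell cycle genes 13 were lower and 0 higher. Of 7 macrophage and dendritic cell genes 3 were lower in DN1 and 0 higher, with list means of 6.08 to 6.23 against 7.46 to 7.55 in CLP. The part of these lists in the members' differences was not tested. With spike-in cluster as a random block 4 members were higher and 3 lower, and without CMP replicate 1 and DN3 replicate 3 it was 14 and 32.

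From DN1 to DN2 few members moved. Atp5h was higher, at 15.03, 15.05 and 15.03 against 14.76, 14.78 and 14.61 (0.32, SE 0.09, limma adjusted p = 0.0239), and the dim Cox7a1 was higher by 0.35 (adjusted p = 0.0341) within 1 log2 unit of the floor. With these 2 higher and 0 lower by limma, 8.11% of all genes passed (3.99% higher and 4.12% lower), and 12.6% of genes not dim. The count was 0 or 1 without any one of DN1 replicates 1 and 3 and DN2 replicates 1, 2 and 3, 4 without CMP replicate 1, and 0 in a fit that left out dim genes, where Atp5h no longer passed.

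The step from DN2 to DN3, where T cell receptor beta chain rearrangement takes place, moved 36 members, close to the 34 of CLP with GMP and the 32 of CMP with MPPFL+. After quantile normalization it had 30, fewer than these comparisons (33 and 34). Among the complex I and assembly factor genes that passed, more were lower than higher in DN3. Of the 94, 8 were higher and 28 lower, while of all genes 31.1% passed (50.1% of genes not dim) with more of them higher (16.7%) than lower (14.4%). Complex I had 1 higher and 12 lower of 36, the assembly factors 2 and 6 of 12, complex IV 2 and 4 of 17, ATP synthase 2 and 3 of 17, complex III 1 and 2 of 8, and complex II 0 and 1 of 4. The median difference over members not dim was -0.246, and over all genes not dim 0.032.

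Ndufaf2 fell 6.23-fold (log2 difference -2.64, SE 0.24, limma adjusted p = 4.63e-08) and Ndufaf5 4.13-fold (-2.05, SE 0.24, adjusted p = 1.57e-06). Sdhd was 2.55-fold lower (-1.35, SE 0.37, adjusted p = 0.00764), at 10.22, 9.92 and 11.26 in DN3 against 11.56, 12.01 and 11.87, and DN3 replicate 3 was nearest to DN2. Ndufa5 (2.48-fold), Ndufb1 (2.43-fold) and Ndufs4 (2.41-fold, adjusted p = 9.08e-05) of complex I were lower as well. Higher in DN3 were Cox6b2 (2.66-fold, adjusted p = 0.0372), Ndufs8 (2.41-fold, adjusted p = 0.00077), Ndufaf3 (2.26-fold, adjusted p = 0.000154), Uqcrc1 (2.2-fold, adjusted p = 0.00626), Atp5l (2.01-fold, adjusted p = 0.0113) and Atp5d (1.56-fold, adjusted p = 0.0211). Atp5l, Atp5d and Ndufb1 did not pass without the 4 arrays that read Xist or with the spike-in block, and Cox6b2 lost its call under 9 of 36 alternatives. Of 19 cell cycle genes 18 were lower in DN3 and 0 higher, and their list mean was 9.49 to 9.89 in DN3 against 12.16 to 12.35 in DN2. Of the 15 immediate early genes 7 were lower. Of 7 macrophage and dendritic cell genes 4 were lower, with list means of 2.91 to 3.62 in DN3 and 4.58 to 4.93 in DN2, and the part of these lists was not tested.

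The arrays that stand apart weighed on this count. Without the 4 arrays that read Xist, 14 members passed, 6 higher and 8 lower, and 22.9% of all genes did. With spike-in cluster as a random block 11 passed, 1 higher and 10 lower. Sdhd did not pass without the 4 arrays or without DN3 replicate 2, whereas Ndufaf2, Ndufaf5, Ndufs4 and Ndufaf3 passed under every alternative tried.

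A course of higher and then lower was shared by members of several complexes in the thymus. All 11 members that were higher in DN1 than in CLP were also lower in DN3 than in DN2: the subunits Ndufa1, Ndufa5, Ndufb3 and Ndufs4 of complex I, Uqcrb and Uqcrh of complex III and Atp5md of ATP synthase, with the assembly factors Ndufaf1, Ndufaf2, Ndufaf5 and Ndufaf6. Of all genes higher in DN1, 47.6% (696 of 1461) did so. These comparisons share no array, but both come from 1 fit with 1 estimate of the spread per gene. DN1 and DN2 also form a spike-in cluster of their own, apart from CLP and DN3. In both comparisons stage and spike-in cluster thus cannot be told apart. Of the 17 members lower in DN1, 5 were then higher in DN3 (29.4%, against 43.9% of all genes lower in DN1). Without the 4 arrays that read Xist the counts were 8 and 5 of them (28.8% of genes), and with spike-in cluster as a random block 4 and 3 (41.7%). The 11 had the same signs in every alternative tried. They were listed because they passed in both comparisons, so these signs are no separate evidence.

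CLP with GMP sets the lymphoid beside the myeloid branch, with 16 members higher in CLP and 18 lower (28.3% of all genes passed, 16.7% higher and 11.6% lower, and 44.5% of genes not dim). Complex II went with GMP for 3 of its 4 genes: Sdhd was 2.75-fold lower in CLP (log2 difference -1.46, SE 0.37, limma adjusted p = 0.00472), Sdhc 1.55-fold (adjusted p = 0.0159) and Sdha 1.47-fold (adjusted p = 0.0186). Sdhb was 1.81-fold higher in CLP (adjusted p = 0.00119). Also lower in CLP were Ndufa9 (2.07-fold, adjusted p = 0.000514), Ndufaf5 (2.03-fold), Ndufa1 (1.86-fold, adjusted p = 4.51e-05), Ndufb6 (1.66-fold, adjusted p = 0.000309) and Cox6b1 (1.57-fold). Higher in CLP beside Cox6a2 were Ndufaf8 (2.94-fold, adjusted p = 0.000352), Sdhaf4 (2.34-fold, against a value shared by the GMP arrays), Ndufs8 (2.33-fold), Ndufa6 (2.26-fold) and Cox7a2l (1.86-fold, adjusted p = 0.00014). On the other probe set of Ndufaf8, CMP was 0.80 above MPPFL+, GMP 0.73 below CMP and CLP 0.07 above MPPFL+. There CLP and GMP were thus nearly level, and the difference depends on the probe set. Ndufaf8 passed under all 36 alternatives, with log2 differences down to 0.78.

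Complex I had 8 genes higher and 7 lower in this comparison, the assembly factors 4 and 2, complex IV 2 and 2, ATP synthase 1 and 3, and complex III 0 and 1. The control difference between 3 prime and 5 prime probes parts GMP from CLP, and with it as a covariate 19 members passed, 8 higher and 11 lower. Sdhd, Sdhaf4 and Ndufaf5 passed neither with this covariate nor with the spike-in block. With spike-in cluster as a random block 7 passed.

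Other mitochondrial genes were counted in the same way. Of 18 measured genes of the tricarboxylic acid cycle, 6 were higher in GMP than in CMP and 0 lower, and 7 were lower in DN1 than in CLP and 0 higher. In DN3 with DN2, 4 of them were higher and 4 lower. Of the 10367 genes not dim, 2174 were higher and 1264 lower in GMP than in CMP. In DN1 with CLP, 1331 of these were higher and 3278 lower. Dlat, a subunit of pyruvate dehydrogenase, was at 10.10 in GMP and 8.96 in CMP (log2 difference 1.13, SE 0.17, limma adjusted p = 7.56e-05). Ogdh, of the oxoglutarate dehydrogenase complex, fell by 1.92 in DN1 and was higher by 1.41 in DN3 than in DN2. Of 25 genes of mitochondrial import and cristae, 10 were lower in DN3 than in DN2 and 1 higher. Of 16 electron carriers and other chain genes outside the prefixes, 4 were higher and 8 lower there. Of 32 assembly factors outside the prefixes, 2 were higher and 8 lower. In this comparison 16.7% of all genes were higher and 14.4% lower, and of the 10367 genes not dim 2772 and 2425.

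Regulators of mitochondrial biogenesis and mitochondrial DNA, 23 genes, were lower in CMP than in MPPFL+ for 14 and higher for 1. Of all genes 18.7% were lower and 5.39% higher there, and of the 10367 genes not dim 3228 and 814. Tfam, which packs and transcribes mitochondrial DNA, fell by 1.32 (SE 0.17, limma adjusted p = 1.34e-05), and Ppargc1a, a coactivator of this programme, was at the floor in CMP and at 4.98 in MPPFL+. In DN1 with CLP, 2 of the 23 were higher and 6 lower (8.03% and 18.8% of all genes). Nrf1 was higher in DN1 by 1.77 (adjusted p = 6.17e-05), while Polrmt of the same list was lower (-1.79). In DN3 with DN2, 6 were higher and 5 lower (16.7% and 14.4% of all genes). Nrf1 was lower in DN3 (-1.31, adjusted p = 0.000917), while Polrmt (1.58) and Tefm (1.32) were higher. Gabpb1, a subunit of GABP, was at 9.32 in CLP and 6.33 in GMP (2.99, SE 0.23, adjusted p = 4.11e-09).

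For 53 members more than 1 probe set was present. A second probe set passed in the opposite direction for Ndufab1 and Ndufs4 in CMP with MPPFL+ and for Sdhaf2 in DN1 with CLP, so these calls depend on the probe set. For Ndufs4 in DN3 with DN2 the other probe sets pointed the same way, with differences of -0.68 (limma adjusted p = 0.000889), -0.26 (adjusted p = 0.767) and -0.76 (adjusted p = 0.055). In DN1 with CLP they did not all do so, at -0.62 (adjusted p = 0.202), 0.19 (adjusted p = 0.429) and 0.25 (adjusted p = 0.744), and with the mean of its probe sets Ndufs4 did not pass there (0.25, adjusted p = 0.0857). A further 10 probe sets name a chain gene together with another gene and were not used.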

How the data were processed

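Total RNA (Trizol, biotin-labelled, per the labels' protocols) of 26 samples was read on Affymetrix arrays. The deposited table holds log2 values for 45101 probe sets; the authors' normalization method was not given in the sources used here. Array number limits the precision. Of the probe sets, 34958 name 1 gene, 932 several and 9211 none in the platform annotation; only the first were used, and each gene was read from the probe set with the highest mean. The members and gene lists were chosen with earlier results of these data known.

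Populations were taken from the titles and fitted together in limma 3.58.1 (R 4.3.3; lmFit and eBayes, population as the only term), with Benjamini-Hochberg adjustment over 18194 genes and a threshold of 0.05. No filter on low values was used; a gene with its mean within 1 log2 unit of the floor is called dim. The fit was tested on simulated data.

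Members named were, per comparison, up to 6 rises and 6 falls with the largest change that passed without overlap of arrays; the 10 widest and the 6 narrowest ranges; dim members; isoform pairs; complex II; and up to 3 genes of each pathway list. Other members named (such as Ndufaf1, Ndufaf6, Ndufb3, Atp5md and Cox7c) were chosen after their values were seen, as were the striated muscle and plasmacytoid dendritic cell lists. Alternatives were quantile normalization, the mean of probe sets, leaving out dim genes, trend and robust variance, only the populations compared, a replicate block, spike-in cluster as a random block, the 3 prime to 5 prime difference as a covariate, leaving out the 4 arrays against the male label, each array in turn and, chosen after seeing the data, CMP replicate 1 with DN3 replicate 3.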

Additional observations from a re-analysis of the deposited data

Results flagged for a closer look

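Only MPPFL-, with 5 arrays, was large enough to ask whether 1 array lay far from the rest. This was so for 7 of 53 named members tested. For Cox4i2, Cox6a2, Cox7a1 and Cox7b2 the other 4 arrays share 1 value, so that any difference stands out. Chance gives about 1 in 20 where values are not tied, and the other 3 are near that rate. Replicate 1 read 12.603 for Uqcrh against 11.846 to 12.039 on the others, and 14.546 for Atp5h against 14.717 to 14.774. Replicate 5 read 14.14 for Ndufc2 against 14.237 to 14.277, and 2.882 for Cox6a2 where the other 4 arrays share the value 3.922. The remaining 3 genes are dim: Cox7a1 read 2.615 on replicate 4 against 2.371, Cox7b2 read 2.198 on replicate 1 against 2.171, and Cox4i2 read 2.172 on replicate 2 against 2.171.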

How the results depend on the processing

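No direction of the 71 named member results reversed under any of the 36 alternatives. These results were chosen for passing without overlap of arrays, so fits that only leave arrays out could not reverse them. The largest losses came with spike-in cluster as a random block, where 36 members passed the F test, 4 passed in CMP with MPPFL+, 2 in GMP with CMP, 7 in DN1 with CLP, 11 in DN3 with DN2 and 7 in CLP with GMP. Fits of only the populations compared gave 3 in CMP with MPPFL+ and 5 in GMP with CMP. Without the 4 arrays against the male label DN3 with DN2 gave 14, and the 3 prime to 5 prime covariate gave 19 in CLP with GMP. Without CMP replicate 1 and DN3 replicate 3, chosen after seeing the data, 19 passed in MPPFL+ with MPPFL-, 46 in DN1 with CLP and 6 in DN2 with DN1; the mean of probe sets gave 6 in the last, and leaving out dim genes 0. The replicate block gave 6 in MPPFL+ with MPPFL- and 1 in DN2 with DN1, and left other counts within 1.5 times; same-numbered arrays of different populations had a median correlation of -0.016 (84 pairs, -0.402 to 0.399), so the numbers were not taken to pair the samples. Leaving out single arrays gave 5 to 18 in MPPFL+ with MPPFL-, 20 to 35 in CMP with MPPFL+, 11 to 29 in GMP with CMP, 1 in CLP with MPPFL+, 20 to 37 in DN1 with CLP, 0 to 4 in DN2 with DN1, 25 to 45 in DN3 with DN2, 24 to 42 in CLP with GMP and 67 to 79 in the F test. The causes of these shifts were not tested. Levels near the floor, as for the 7 dim members, limit what a difference can show.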

Other observations

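ND5, a complex I subunit encoded by mitochondrial DNA and no member by its name, read 14.55, 14.67 and 14.63 in GMP, above every array of the other populations, which lay between 13.38 and 14.35. It was lowest on DN3 replicate 3.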
